A study of Mus musculus with 14 samples.

Results

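The genes described here are 9 of the 55487 genes in the count table, chosen by name for their place in prostaglandin and leukotriene synthesis, with earlier results of these data known. They are Pla2g4a (cytosolic phospholipase A2), Ptgs1 and Ptgs2 (the cyclooxygenases), Hpgds (haematopoietic prostaglandin D synthase), Hpgd (the dehydrogenase that inactivates prostaglandins), Alox5 (5-lipoxygenase), Alox5ap (its activating protein, FLAP), Ltc4s (leukotriene C4 synthase) and Lta4h (leukotriene A4 hydrolase). Of these, 8 had enough counts to be tested between groups, and Hpgd did not.

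Prostaglandins and leukotrienes are lipid mediators made on demand from arachidonic acid, and mast cells are a well known source of prostaglandin D2 and of leukotriene C4. A cytosolic phospholipase releases arachidonic acid from membrane lipids, cyclooxygenases turn it into prostaglandin H2 and a terminal synthase turns that into prostaglandin D2. In the other branch, 5-lipoxygenase with its membrane partner makes leukotriene A4, which becomes leukotriene C4 or leukotriene B4.

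The libraries were RNA sequencing of small pools of mouse skin mast cells, at most 100 sorted cells per pool by the protocol, taken from the ears. Resident mast cells were sequenced in 5 libraries without treatment and in 5 after MC903, and 4 further libraries after MC903 carry the label bone marrow mast cells. MC903 is calcipotriol, a vitamin D analogue used on mouse skin to produce a dermatitis resembling atopic dermatitis. The protocol names integrin β7+ mast cells as the cells sorted beside the resident ones, and it names no bone marrow sample, so the last group is called the MC903 bone marrow libraries as labelled. Strain, sex, age, dose, days of treatment and any marker of the sort other than integrin β7 are not given in the sources used here. The labels tie no library to an animal, so the p-values measure only the spread between these libraries, which may in part be technical. In pooled cells, fewer cells with a transcript and less of it per cell cannot be told apart.

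Total counts ran from 13068078 to 31781926 per library, and levels are given as CPM, counts scaled to a common library total and for library composition. All 10 mast cell markers examined, among them Kit, Cpa3 and Fcer1a, were detected in each group, with summed levels of 83200 to 109000 CPM in untreated resident, 104000 to 158000 in MC903 resident and 102000 to 153000 in MC903 bone marrow libraries. Itgb7, the integrin chain of the protocol, stood at 396.7 to 660.2 CPM in the MC903 bone marrow libraries and at 138.6 to 316.6 CPM in the resident libraries of both treatments. One library stood apart: in bone marrow library 15 the 7 macrophage and dendritic cell markers summed to 5020 CPM. Bone marrow libraries 11, 13 and 14 had sums of 3.94 to 20.1 CPM, against 9.45 to 22.5 CPM in MC903 resident and 0.285 to 8.05 CPM in untreated resident libraries, so that the resident groups did not overlap. In it Csf1r reached 1105 CPM, C1qb 2262 CPM and Adgre1 342 CPM, while Cd207 was at 0.152 CPM. Results that rest on library 15 are therefore given with and without it. The 3 basophil markers (Mcpt8, Prss34 and Cd200r3) were detected in each group, at summed levels of 482 to 738, 435 to 666 and 271 to 1510 CPM in the same order of groups, highest in library 11. Cd200r3 ranged from 224.3 to 712.7 CPM over the 14 libraries and was the larger part of the sum in each but library 11, where Mcpt8 was. Mcpt8 alone stood at 9.54 to 37.4 CPM in untreated resident, 3.16 to 57.3 CPM in MC903 resident and 46.7 to 980.2 CPM in bone marrow libraries, so bone marrow and untreated libraries did not overlap for it. Libraries 7, 8 and 15 had the most detected genes, 32814 to 35246 against 16025 to 28790 in the others. The mitochondrial share of counts also differed, at 1.22% to 1.70% in untreated resident, 2.39% to 3.96% in MC903 resident and 2.14% to 4.24% in bone marrow libraries. The part of macrophage and basophil transcripts, detected genes and mitochondrial share in the differences between groups was not tested.

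Promoter sequences show what is upstream of the genes whose levels differed between groups. Both printed here come from a set of RefSeq promoters (GRCm38.p6) in which 8 of the 9 genes were matched and Alox5ap was not. They are printed 5′ to 3′ on the strand of the gene, leaving out bases that GENCODE M21 places in an exon. The first is the 72 bases before the annotated exon of Hpgds, chr6:65144909-65144980, minus strand, and the second the 250 bases before Alox5, chr6:116461179-116461428, minus strand.
Hpgds: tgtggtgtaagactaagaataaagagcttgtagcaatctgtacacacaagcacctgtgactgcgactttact
Alox5: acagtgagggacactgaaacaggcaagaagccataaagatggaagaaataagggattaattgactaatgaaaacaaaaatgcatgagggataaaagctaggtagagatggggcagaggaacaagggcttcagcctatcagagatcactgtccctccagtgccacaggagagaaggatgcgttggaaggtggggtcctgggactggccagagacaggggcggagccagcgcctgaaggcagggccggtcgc
Both stretches are in lower case throughout because neither held a match to the strings searched on both strands. These were AGATAA or TGATAA (the GATA motif), CACGTG or CATGTG (an E-box, as bound by MITF, the lineage factor of mast cells), TGACGTCA (a cyclic AMP response element), TGACTCA (an AP-1 motif) and TATAAA. In windows of 300 bases around the start of transcription, 18.6% of all 32851 windows held the GATA strings, 20.4% the E-box, 1.79% the cyclic AMP element, 5.2% the AP-1 string and 13.6% the TATA string. The Hpgds window held 1 E-box, 80 bases before the RefSeq start, in a stretch that GENCODE counts as exon. Pla2g4a had 2 windows, one with 2 E-box matches and the other with 2 GATA matches and 1 TATA match. Ptgs2 held 1 E-box and Hpgd 1 TATA string, both just past the start, and the windows of Ptgs1, Ltc4s, Alox5 and Lta4h held none of the strings. These matches are strings of letters and no measure of binding.

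Hpgds, whose enzyme makes prostaglandin D2, had the highest mean level per length of the 9 transcripts in both resident groups, although in MC903 resident library 10 Alox5ap was above it (55.1 against 43.7 RPKM, CPM divided by exonic length in kilobases), and it was lower in bone marrow than in untreated libraries. Its gene is at chr6:65117293-65144908 on GRCm38, minus strand. In untreated resident libraries 1 to 5 it stood at 520.3, 465.3, 396.2, 532.3 and 528.1 CPM. The MC903 resident libraries 6 to 10 gave 378.7, 217.8, 202.3, 309.1 and 280.5 CPM, and the MC903 bone marrow libraries 11, 13, 14 and 15 gave 223.8, 302.2, 270.5 and 122.8 CPM. Every untreated library was above every MC903 library, the lowest untreated value being library 3 and the highest MC903 value library 6, while the MC903 groups overlapped each other.

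The Hpgds means were 488.4 ± 58.2 CPM (SD, n = 5) untreated, 277.7 ± 71.5 CPM (SD, n = 5) in MC903 resident and 229.8 ± 78.3 CPM (SD, n = 4) in MC903 bone marrow libraries. Between bone marrow and untreated libraries the level fell by 1.09 ± 0.24 on the log2 scale (estimate and SE, a 2.12-fold difference), with an edgeR adjusted p of 0.00646. Left out one at a time, each library of that comparison left the call in place, with edgeR adjusted p from 0.00321 to 0.014. Without library 15 the bone marrow mean was 265.5 ± 39.4 CPM (SD, n = 3) and the log2 difference -0.88. An offset for gene length fitted over all genes tested gave -0.75 and ended the call, with an edgeR adjusted p of 0.184.

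Between MC903 resident and untreated resident cells, the Hpgds log2 difference was -0.81 ± 0.22, with a 95% interval of -1.25 to -0.38. The edgeR adjusted p was 0.0597, which misses the threshold of 0.05. DESeq2 gave an adjusted p of 0.041 and limma voom one of 0.00743, the edgeR fit on those groups alone gave 0.0174 edgeR with no filter on low counts gave 0.00295 and the fit without library 6 gave 0.0458, so whether this comparison passed turned with the tool, the filter and the libraries. Between the MC903 populations the log2 difference was -0.27 ± 0.23 (bone marrow minus resident, 95% interval -0.73 to 0.19), with an edgeR adjusted p of 0.584.

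**Figure D1:**
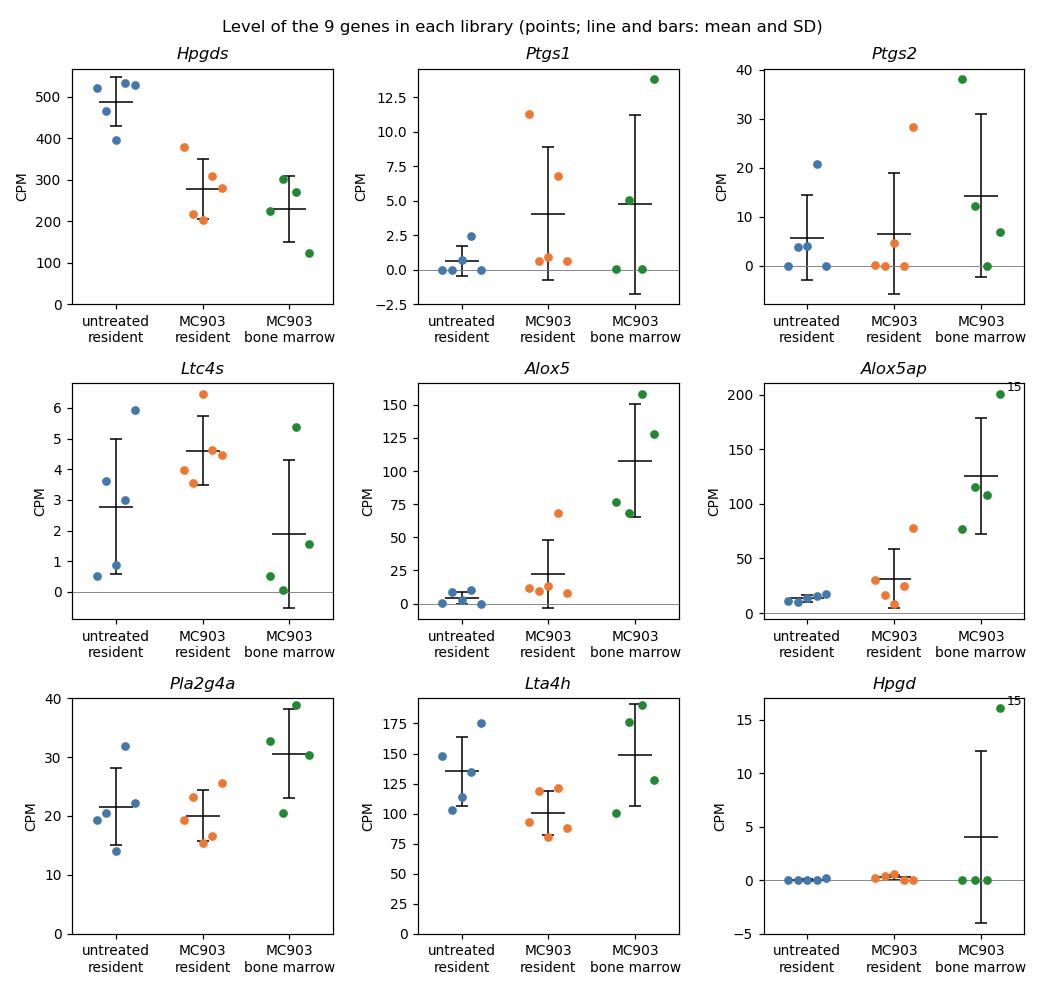
Level of each of the 9 genes in CPM (vertical axes, from a separate scale per gene) in the untreated resident, MC903 resident and MC903 bone marrow libraries; points are libraries, lines and bars the mean and SD, and library 15 is marked for Alox5ap and Hpgd. Hpgds is above 396 CPM in each untreated library and below 379 CPM in each MC903 library, whereas Alox5 and Alox5ap are highest in the bone marrow libraries.

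Alox5ap, the membrane protein that presents arachidonic acid to 5-lipoxygenase, was higher in the MC903 bone marrow libraries than in both resident groups. Its gene is at chr5:149264767-149288153, plus strand, and 189 of its 1420 exonic bases are shared with the antisense gene Gm19719. The untreated resident libraries 1 to 5 gave 11.06, 9.89, 13.71, 15.67 and 17.03 CPM. The MC903 resident libraries 6 to 10 gave 29.85, 16.35, 8.72, 24.87 and 78.23 CPM, and the bone marrow libraries 11, 13, 14 and 15 gave 76.82, 115.7, 108 and 200.9 CPM. The untreated libraries were low and close together, the resident MC903 libraries spread widely with library 10 far above the rest, and the bone marrow libraries were all above every untreated one.

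Mean Alox5ap was 13.5 ± 3.0 CPM (SD, n = 5) untreated, 31.6 ± 27.3 CPM (SD, n = 5) in MC903 resident and 125.4 ± 53.1 CPM (SD, n = 4) in bone marrow libraries. Against untreated cells the bone marrow libraries were higher by 3.22 ± 0.47 on the log2 scale, 9.3-fold, with an edgeR adjusted p of 0.000129. That call held with each library left out in turn, with edgeR adjusted p from 5.78e-05 to 0.000695. Library 15 was the highest for Alox5ap as well as for the macrophage markers. Without it the bone marrow mean was 100.2 ± 20.6 CPM (SD, n = 3) and the log2 difference 2.90, with an edgeR adjusted p of 0.000209. The basophil gene Mcpt8 was also higher in each bone marrow library than in each untreated one, at 980.2, 205.7, 83.6 and 46.7 CPM in libraries 11, 13, 14 and 15. Library 11, the highest for Mcpt8, was the lowest of these for Alox5ap, and the part of basophil transcripts in the Alox5ap and Alox5 differences was not tested. The 4 endothelial markers also summed higher in each bone marrow library (7.47 to 40 CPM) than in each untreated one (0.285 to 6.69 CPM), with 4.56 to 16.1 CPM in MC903 resident libraries. Of this, Pecam1 gave 7.47 to 39.9 CPM in bone marrow libraries and Cdh5 at most 0.084 CPM, and the part of these transcripts was not tested either.

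Against MC903 resident cells, bone marrow Alox5ap was higher by 1.99 ± 0.45 on the log2 scale, 3.96-fold, with an edgeR adjusted p of 0.0199. These groups touched at their edges, resident library 10 at 78.23 CPM lying just above bone marrow library 11 at 76.82 CPM. Without library 15 the log2 difference was 1.67, with an edgeR adjusted p of 0.0435. The call was lost without resident library 6 (edgeR adjusted p 0.0595), 7 (0.0727) or 9 (0.0596), and in the edgeR fit on those groups alone (0.0719). It was also lost without libraries 7, 8 and 15 together, at a log2 difference of 1.16 and an edgeR adjusted p of 0.176. Between MC903 and untreated resident cells the log2 difference was 1.23 ± 0.42, and the edgeR adjusted p was 0.16. There DESeq2 gave an adjusted p of 0.0442, edgeR with no filter on low counts one of 0.0242 and edgeR without libraries 7, 8 and 15 one of 0.026, and leaving out resident library 10 lowered the log2 difference to 0.57.

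Alox5, the 5-lipoxygenase that opens the leukotriene branch, was also highest in the bone marrow libraries. The gene is at chr6:116410077-116461178, minus strand. Untreated resident libraries 1 to 5 gave 0.11, 8.53, 2.44, 9.88 and 0 CPM, and MC903 resident libraries 6 to 10 gave 12.03, 9.80, 13.04, 68.37 and 8.02 CPM. The bone marrow libraries 11, 13, 14 and 15 gave 76.36, 68.61, 158.2 and 127.7 CPM. Bone marrow libraries did not overlap either resident group, although resident library 9 came within 1 CPM of bone marrow library 13. Untreated libraries 1 and 5 were at or near 0, while untreated libraries 2 and 4 lay within the range of the MC903 resident libraries.

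Mean Alox5 was 4.19 ± 4.70 CPM (SD, n = 5) untreated, 22.3 ± 25.9 CPM (SD, n = 5) in MC903 resident and 107.7 ± 42.7 CPM (SD, n = 4) in bone marrow libraries. Bone marrow against untreated cells differed by 4.68 ± 1.27 on the log2 scale, 25.6-fold, with an edgeR adjusted p of 0.0474. This call was close to the threshold. It was lost when any 1 of the 9 libraries compared was left out, except untreated library 5, with edgeR adjusted p from 0.0228 to 0.112 and log2 differences from 4.36 to 5.26. Without library 15 the bone marrow mean was 101 ± 49.6 CPM (SD, n = 3), and the edgeR adjusted p was 0.0825. The call was also lost with no filter on low counts (edgeR adjusted p 0.126), with the length offset (0.0516) and without libraries 7, 8 and 15 together (0.0534).

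The other comparisons of Alox5 did not pass in edgeR. Bone marrow against MC903 resident cells gave a log2 difference of 2.27 ± 1.16 with an edgeR adjusted p of 0.333, and limma voom gave one of 0.00661. With 1 library left out that difference ran from 2.04, without bone marrow library 14, to 3.20, without resident library 9, with edgeR adjusted p from 0.201 to 0.487. MC903 against untreated resident cells gave 2.40 ± 1.13 and an edgeR adjusted p of 0.419, and without resident library 9 the log2 difference was 1.47.

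**Figure D2:**
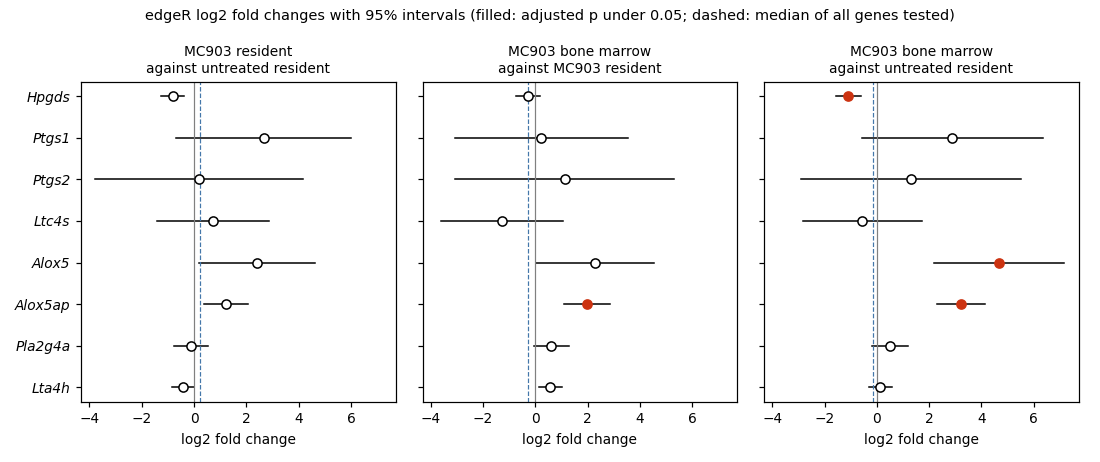
Fitted log2 fold change of the 8 tested genes (horizontal axes; a positive value is higher in the group named first) in each of the 3 comparisons, with bars for the 95% interval, filled circles where the edgeR adjusted p is under 0.05 and a dashed line at the median of all genes tested. Alox5ap is filled in both comparisons of the bone marrow libraries, at 1.99 and 3.22, and Hpgds and Alox5 only in the one against untreated cells, at -1.09 and 4.68.

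Of the terminal leukotriene enzymes, Lta4h was abundant and Ltc4s scarce, and neither passed in any of the 3 comparisons in the edgeR fit with its standard scaling. Lta4h, the hydrolase that makes leukotriene B4, is at chr10:93453411-93484875, plus strand. It ranged from 103.2 to 175.8 CPM in untreated resident libraries, from 80.6 to 121.3 CPM in MC903 resident and from 100.1 to 190.6 CPM in bone marrow libraries, so all the groups overlapped. Its log2 difference was -0.43 ± 0.22 between the resident groups, with an edgeR adjusted p of 0.435. Between bone marrow and MC903 resident libraries it was 0.57 ± 0.23, with a 95% interval of 0.12 to 1.01 and an edgeR adjusted p of 0.194. The length offset raised that difference to 0.99, which passed with an edgeR adjusted p of 0.0459. For bone marrow against untreated libraries it was 0.14 ± 0.23, with an interval of -0.31 to 0.59.

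Ltc4s, which conjugates leukotriene A4 with glutathione, lies at chr11:50236461-50238616, minus strand, and shares 268 of its 1014 exonic bases with Gm26542 on the other strand. The untreated resident libraries 1 to 5 gave 0.51, 3.61, 0.86, 2.99 and 5.94 CPM. The MC903 resident libraries 6 to 10 gave 3.96, 3.54, 6.46, 4.62 and 4.47 CPM and the bone marrow libraries 11, 13, 14 and 15 gave 0.50, 0.07, 5.38 and 1.57 CPM. The MC903 resident libraries were the most even, with a coefficient of variation of 24.3% against a median of 74% for genes of like level there. In the other groups the values spread from near 0 to over 5 CPM. The log2 difference between bone marrow and MC903 resident libraries was -1.29 ± 1.19, with an edgeR adjusted p of 0.614, and an interval of -3.62 to 1.04 leaves a wide range of differences possible. It was -2.69 without bone marrow library 14 and -0.92 without bone marrow library 13, the ends of the range with 1 library left out, with edgeR adjusted p from 0.361 to 0.767.

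The cyclooxygenases were low and varied from library to library within every group. Ptgs1, the constitutive form, is at chr2:36230426-36252272, plus strand, with 148 exonic bases shared with the antisense gene Gm43621. Its levels were 0, 0, 0.71, 2.47 and 0 CPM in untreated libraries 1 to 5, and 11.3, 0.64, 0.97, 6.76 and 0.68 CPM in MC903 resident libraries 6 to 10. In bone marrow libraries 11, 13, 14 and 15 they were 0.04, 5.08, 0.09 and 13.8 CPM. It was absent from the counts of 3 untreated libraries and present in each MC903 resident one, yet the groups overlapped. The log2 difference between resident groups was 2.67 ± 1.7, with an edgeR adjusted p of 0.604. It ran from 1.87, without resident library 6, to 4.54, without untreated library 4, with edgeR adjusted p from 0.374 to 0.827.

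Library 15, with the macrophage markers, held the highest Ptgs1 of all 14 libraries. The bone marrow mean was 4.75 ± 6.48 CPM (SD, n = 4) with it and 1.74 ± 2.90 CPM (SD, n = 3) without it. The log2 difference between bone marrow and MC903 resident libraries was 0.22 with it and -1.22 without it, with edgeR adjusted p of 0.963 and 0.716, neither past the threshold. Against untreated libraries the bone marrow difference was 2.89 ± 1.77 with an edgeR adjusted p of 0.378. It was 1.43 without library 15 and 4.71 without untreated library 4, with edgeR adjusted p of 0.633 and 0.2. The part of the macrophage transcripts in the Ptgs1 level was not tested.

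Ptgs2, the inducible cyclooxygenase, is at chr1:150100031-150108227, plus strand. It was at 0, 3.77, 4.06, 20.8 and 0 CPM in untreated libraries 1 to 5 and at 0.10, 0, 4.65, 0 and 28.27 CPM in MC903 resident libraries 6 to 10. In bone marrow libraries 11, 13, 14 and 15 it was at 38.05, 12.25, 0 and 7 CPM. Each group held both a library at 0 and a library above 20 CPM. The coefficient of variation was 185.9% in MC903 resident libraries, against a median of 63.6% for genes of like level. None of the comparisons passed in edgeR, the log2 differences being 0.21 ± 2.03 between the resident groups, 1.12 ± 2.14 for bone marrow against MC903 resident and 1.32 ± 2.15 for bone marrow against untreated libraries, with adjusted p of 0.99, 0.837 and 0.803.

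Which cyclooxygenase held more transcript per length changed between libraries of the same group. Ptgs2 made up 82.8% to 100% of the summed RPKM of both genes in the 3 untreated libraries with any. In MC903 resident libraries 6 to 10 its share was 0.776%, 0%, 80.3%, 0% and 97.3%, and in bone marrow libraries 11, 13, 14 and 15 it was 99.9%, 67.2%, 0% and 30.1%. A share of 0% stands for 0 counts of Ptgs2, and in libraries 7 and 14 it rests on only 0.64 and 0.09 CPM of Ptgs1.

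**Figure D3:**
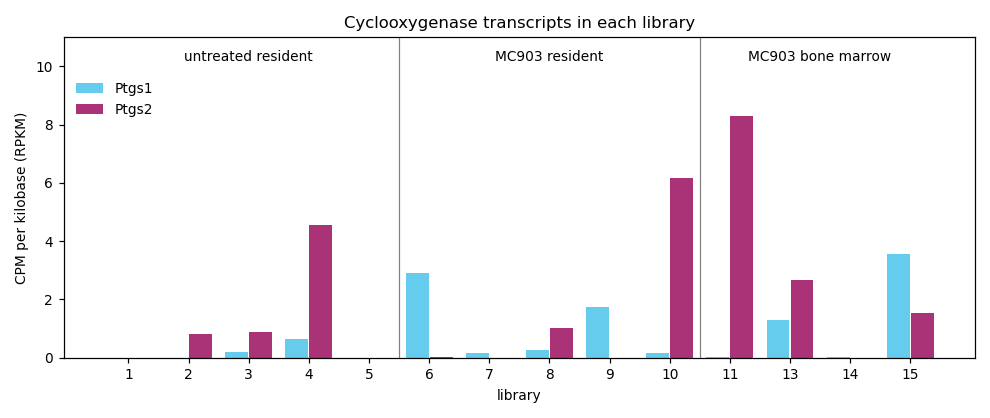
Level per length (RPKM, vertical axis) of Ptgs1 and Ptgs2 in each library (horizontal axis, by group), as bars from 0. Libraries 1 and 5 show neither, libraries 4, 10 and 11 are mostly Ptgs2, and libraries 6, 9 and 15 mostly Ptgs1.

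Pla2g4a, which frees arachidonic acid for both branches, was at a steady moderate level. It is at chr1:149829618-149961290, minus strand. Untreated libraries ranged from 14.1 to 31.9 CPM, MC903 resident libraries from 15.4 to 25.5 CPM and bone marrow libraries from 20.5 to 38.8 CPM, with all groups overlapping. The log2 differences were -0.11 ± 0.33 between resident groups, 0.61 ± 0.35 for bone marrow against MC903 resident and 0.50 ± 0.35 for bone marrow against untreated libraries, with edgeR adjusted p of 0.95, 0.372 and 0.451. The sign of the first one turned with the scaling, from -0.11 to 0.03 with DESeq2 size factors. With a 95% interval of -0.07 to 1.29, a difference of over 2-fold between the MC903 populations lies within the error.

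Hpgd, which inactivates prostaglandins, was at or near 0 in every library but 1 and was not tested. It is at chr8:56294585-56321043, plus strand. It had 0 counts in 4 untreated libraries and 4 counts (0.18 CPM) in library 5. The MC903 resident libraries reached 0.58 CPM at most. In bone marrow libraries 11, 13 and 14 it had 0 counts, and 3 counts there would be 0.126, 0.104 and 0.128 CPM. Bone marrow library 15 had 316 counts, 16.03 CPM. That is the library in which the macrophage markers summed to 5020 CPM, and the part of those transcripts in this value was not tested.

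**Figure D4:**
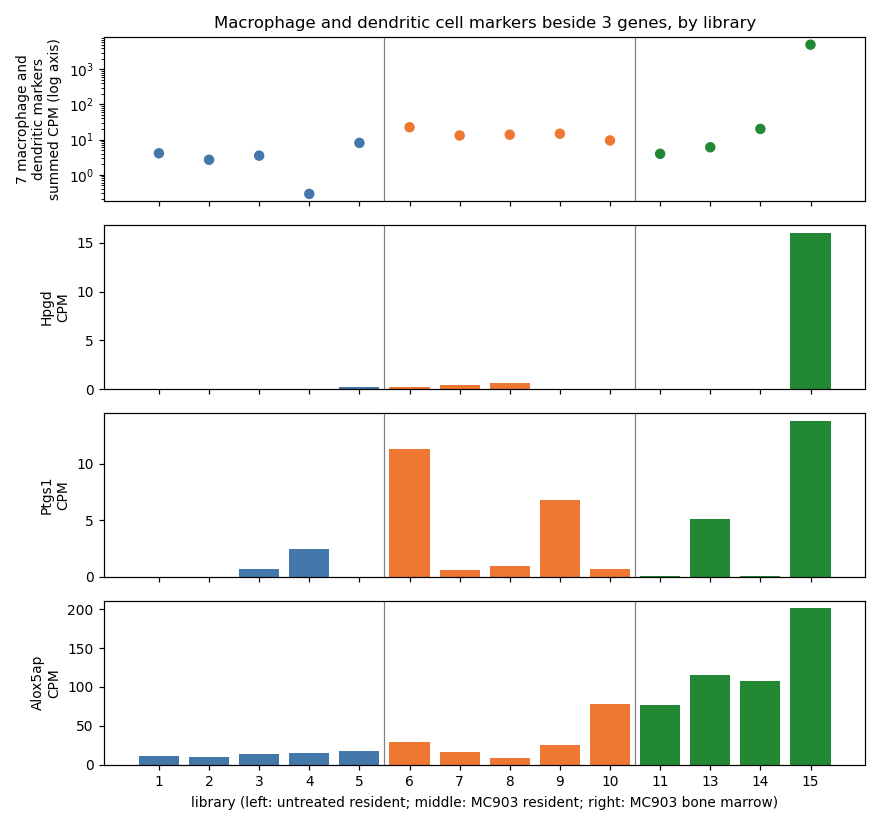
Summed level of the 7 macrophage and dendritic cell markers (top, log axis, CPM) and the CPM of Hpgd, Ptgs1 and Alox5ap (lower panels, bars from 0) in each of the 14 libraries, coloured by group. Library 15, at 5020 CPM of markers, holds the highest value of all 3 genes, while for Alox5ap the other bone marrow libraries stand at 76.8 to 115.7 CPM. Of the genes not shown, Hpgds is lowest in library 15 (122.8 CPM), and Alox5, Ptgs2, Ltc4s, Pla2g4a and Lta4h are highest in other libraries.

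Counted by comparison, 0 of the 8 tested genes passed between MC903 resident and untreated resident cells in edgeR, where 2.25% of all 21014 genes tested passed. There, 2 of the 8 (Hpgds and Alox5ap) had an unadjusted p under 0.05, as did 12.6% of all genes. DESeq2 passed both there, and 5.6% of the genes it tested, while limma voom passed Hpgds alone, and 6.46% of all genes. Between bone marrow and MC903 resident cells 1 of the 8 passed (Alox5ap, higher), against 2.27% of all genes. Between bone marrow and untreated cells 3 of the 8 passed, against 6.87% of all genes. Alox5 and Alox5ap were higher, as were 3.49% of all genes, and Hpgds was lower, as were 3.37%. DESeq2 passed 1 and 3 of the 8 in these last comparisons, beside 8.8% and 16.1% of the genes it tested, and limma voom 2 and 3, beside 9.86% and 10.5% of all genes. Without library 15, 1 of the 8 passed between the MC903 populations and 2 passed between bone marrow and untreated cells, Alox5 being the one lost, and in those fits 2.89% and 6.36% of all genes passed. Groups that did not overlap were found for 1, 1 and 3 of the 8, in that order, against 5.33%, 8.29% and 10.4% of all genes. The median log2 difference of the 8 was 0.47, 0.59 and 0.91, beside 0.24, -0.28 and -0.14 over all genes. Each group enters 2 of these comparisons, so the counts are not independent of each other, and in the last comparison treatment and population differ together.

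By mean level per length, prostaglandin D synthase transcript led in both resident groups, though not in resident library 10, and FLAP transcript led in the bone marrow libraries. In untreated libraries the order of mean RPKM was Hpgds (76.0 ± 9.1), Lta4h (22.1 ± 4.7), Alox5ap (9.49 ± 2.12), Pla2g4a (3.38 ± 1.02), Ltc4s (2.75 ± 2.18), Ptgs2 (1.25 ± 1.89), Alox5 (1.02 ± 1.15), Ptgs1 (0.164 ± 0.276) and Hpgd, as mean and SD over 5 libraries. The first 4 in that order were separate from each other by more than their SDs, and from Pla2g4a down to Ptgs1 neighbours lay within theirs. In MC903 resident libraries the order was Hpgds (43.2 ± 11.1), Alox5ap (22.3 ± 19.2), Lta4h (16.5 ± 3.0), Alox5 (5.42 ± 6.30), Ltc4s (4.55 ± 1.10), Pla2g4a (3.13 ± 0.68), Ptgs2, Ptgs1 and Hpgd. There Alox5ap lay within the SDs of both its neighbours, Lta4h and Alox5 were separate by more than theirs, and the neighbours from Alox5 to Pla2g4a were not. The spread of Alox5ap and of Alox5 was nearly as large as, or larger than, their means.

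In bone marrow libraries the order was Alox5ap (88.3 ± 37.4), Hpgds (35.8 ± 12.2), Alox5 (26.2 ± 10.4), Lta4h (24.4 ± 6.9), Pla2g4a (4.78 ± 1.19), Ptgs2 (3.13 ± 3.62), Hpgd (2.38 ± 4.76, all from library 15), Ltc4s (1.86 ± 2.38) and Ptgs1 (1.22 ± 1.67), over 4 libraries. Alox5ap was separate from Hpgds by more than their SDs and Lta4h from Pla2g4a, while Hpgds, Alox5 and Lta4h lay within theirs, as did all neighbours from Pla2g4a down. Among all genes tested, Alox5ap stood at the 81.9th percentile of RPKM in untreated, the 91.5th in MC903 resident and the 97.1st in bone marrow libraries, and Alox5 at the 50th, 75.6th and 91.2nd. Hpgds went the other way, from the 97th to the 95.4th and 93.3rd percentile. Hpgds made up 83.2% to 99.9% of the summed RPKM of Hpgds and Ltc4s in all 14 libraries.

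**Figure D5:**
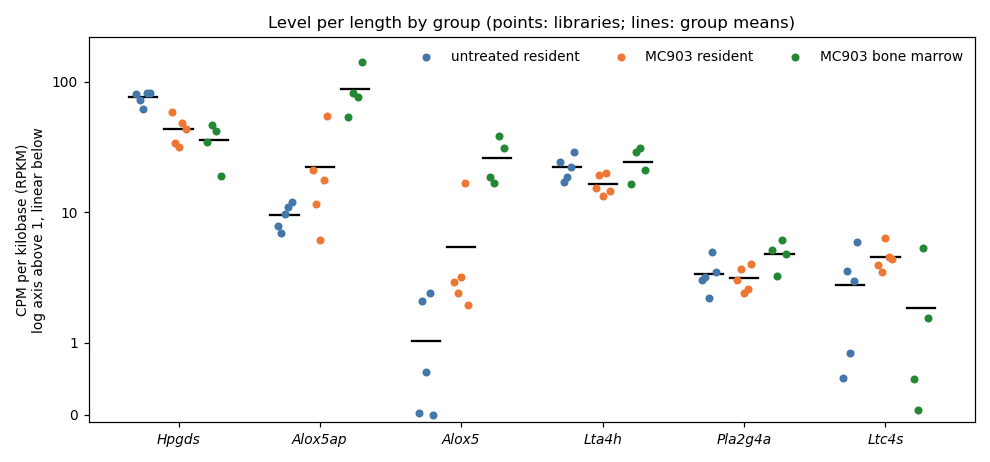
Level per length (RPKM, vertical axis, logarithmic above 1) of 6 of the genes by group; points are libraries and lines are group means. From untreated resident to bone marrow libraries the mean of Hpgds goes from 76.0 to 35.8 RPKM, that of Alox5ap from 9.49 to 88.3 RPKM and that of Alox5 from 1.02 to 26.2 RPKM.

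The rest of the pathway was read from a list of 64 genes, of which 46 had enough counts to be tested. Between MC903 resident and untreated resident cells 2 of the 46 passed in edgeR, 1 higher and 1 lower, against 2.25% of all genes. For bone marrow against MC903 resident cells none passed in edgeR (2.27% of all genes did), 8 had an unadjusted p under 0.05 (17.7% of all genes did). Between bone marrow and untreated cells 5 passed, all higher, against 6.87% of all genes, 3.49% being higher. The median log2 difference of the 46 was 0.54, 0.19 and 0.39 in these comparisons, beside 0.24, -0.28 and -0.14 over all genes. In the same order DESeq2 passed 7 of 43, 3 of 43 and 10 of 41 listed genes that it gave an adjusted p, beside 5.6%, 8.8% and 16.1% of all such genes. Of the 46, limma voom passed 7, 9 and 6, beside 6.46%, 9.86% and 10.5% of all genes.

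Among phospholipases and enzymes that handle arachidonate (15 of 21 tested), Lpcat3 and Anxa1 passed between the resident groups. Lpcat3, an acyltransferase that puts arachidonate into membrane phospholipids, rose, with 72.1 ± 26.2 CPM (SD, n = 5) untreated and 140.6 ± 28.2 CPM (SD, n = 5) in MC903 resident libraries. The log2 difference was 0.96 ± 0.25 with an edgeR adjusted p of 0.0421. No untreated library reached an MC903 resident one, but the nearest pair, 108.7 and 110.7 CPM, were close. Leaving out any of libraries 1, 2, 3, 4, 7 and 10 ended the call, with edgeR adjusted p from 0.0508 to 0.0927, as did the length offset (0.379) and leaving out libraries 7, 8 and 15 together (0.0784). In bone marrow libraries Lpcat3 was at 182.7 ± 50.0 CPM (SD, n = 4), 1.34 ± 0.26 above untreated on the log2 scale with an edgeR adjusted p of 0.00222, which held with each library left out. Anxa1, annexin A1, known as an inhibitor of phospholipase A2, fell from 739.5 ± 146.6 to 349.3 ± 146.6 CPM, a log2 difference of -1.08 ± 0.27 with an edgeR adjusted p of 0.0332. That call ended without any of libraries 1, 4, 5, 6, 7 and 8, with edgeR adjusted p from 0.0725 to 0.115, and also with the length offset (0.0573), with an offset for GC content (0.137) and without libraries 7, 8 and 15 together (0.15). In bone marrow libraries Anxa1 was at 664.3 ± 225.5 CPM (SD, n = 4), -0.15 ± 0.28 from untreated.

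Other tools passed further phospholipase and acyltransferase genes, named here after their values were seen. Between the resident groups DESeq2 passed 4 of the 15, adding Pla2g7 and Mboat7 to Lpcat3 and Anxa1, beside 5.6% of all genes it tested, and limma voom passed 4, adding Pla2g7 and Pla2g4c, beside 6.46%. Pla2g7, a secreted phospholipase that breaks down platelet activating factor, ranged from 4.73 to 53.9 CPM in untreated, from 88.9 to 260.5 CPM in MC903 resident and from 6.41 to 187.8 CPM in bone marrow libraries, so the resident groups did not overlap. The highest bone marrow value was that of library 15, and the others there reached 21.7 CPM at most. The Pla2g7 log2 difference between the resident groups was 2.999 ± 0.997 with an edgeR adjusted p of 0.183, against adjusted p of 0.0122 in DESeq2 and 0.000971 in limma voom. Between the MC903 populations DESeq2 passed Anxa1 (higher in bone marrow, beside 8.8% of all genes), and limma voom passed Anxa1 (higher), Pla2g7 and Pla2g4c (both lower), beside 9.86%. Between bone marrow and untreated cells both tools passed Lpcat3 and Faah, a fatty acid amide hydrolase, both higher, beside 16.1% and 10.5% of all genes.

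Of the prostanoid synthases beside Hpgds, 8 of 9 were tested and none passed in edgeR in any comparison. Those with an unadjusted p under 0.05 numbered 1 between the resident groups, 1 between the MC903 populations and 3 between bone marrow and untreated cells, where 12.6%, 17.7% and 21.3% of all genes had one. In the last comparison DESeq2 passed 1 of the 8, Tbxas1 (thromboxane A synthase), named here after its values were seen, and limma voom passed none, beside 16.1% and 10.5% of all genes. Tbxas1 was at 1.13, 1.36, 0.17 and 27.8 CPM in bone marrow libraries 11, 13, 14 and 15 and at 0.36 to 1.13 CPM in untreated ones. Its DESeq2 log2 difference was 3.82 with an adjusted p of 0.0126, and without library 15, the one with the macrophage markers, 0.64 with an adjusted p of 0.759. Ptges3, a prostaglandin E synthase, had the highest level per length of them, at a mean of 38.3 RPKM over the 14 libraries.

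Of the other lipoxygenases and leukotriene enzymes, 10 of 14 were tested. In edgeR, Alox8 and Cotl1 passed between bone marrow and untreated cells, beside 6.87% of all genes, and none passed in the other comparisons. Cotl1, coactosin-like protein, which binds 5-lipoxygenase, was at 45.2 ± 13.5 CPM (SD, n = 5) in untreated and at 105.8 ± 26.4 CPM (SD, n = 4) in bone marrow libraries. Its log2 difference was 1.23 ± 0.28 with an edgeR adjusted p of 0.00884, and it held with each library left out. A length offset from genes of at least 10 CPM lowered it to 0.78 and ended the call, with an edgeR adjusted p of 0.125. Alox8, a lipoxygenase of skin, went from 6.63 ± 5.73 to 27.7 ± 6.4 CPM, a log2 difference of 2.06 ± 0.61 with an edgeR adjusted p of 0.0425. Leaving out any of libraries 1, 3, 4, 11, 14 and 15 ended this call, with edgeR adjusted p from 0.0506 to 0.096, as did the GC offset (0.0648), the fit on those groups alone (0.0904) and leaving out libraries 7, 8 and 15 together (0.0975). Both other tools passed Alox8 and Cotl1 in this comparison too. DESeq2 passed 2 of 8 there and limma voom 3 of 10, beside 16.1% and 10.5% of all genes. Between the resident groups both passed only Alox8 and Mgst2 (higher in MC903), beside 5.6% and 6.46% of all genes. Mean Mgst2 was only 0.055 CPM in untreated and 2.88 CPM in MC903 resident libraries, and edgeR did not pass it (adjusted p 0.183). Between the MC903 populations both tools passed Aloxe3, with means of 0.12 CPM in bone marrow and 3.47 CPM in resident libraries. There limma voom added Cotl1 (higher), Dpep2, Ggt5 and Mgst1 (lower). DESeq2 thus passed 1 of 8 and limma voom 5 of 10, beside 8.8% and 9.86% of all genes. Mean Dpep2 and Ggt5 were 3.79 and 2.25 CPM in MC903 resident libraries. In bone marrow libraries each had counts in 1 library only, at 2.69 and 3.50 CPM. Against untreated libraries limma voom again passed Mgst1 as lower, at a log2 difference of -5.98, although the untreated mean of 18.8 CPM lay below the bone marrow mean of 21.7 CPM. Library 15 held 83.7 CPM of it and the other bone marrow libraries at most 2.90 CPM. These further genes were named after their values were seen.

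Among inactivation and transport genes (6 of 6 tested), Abcc1 passed between bone marrow and untreated cells. Abcc1, the transporter that exports leukotriene C4, went from 44.0 ± 10.4 to 78.9 ± 19.7 CPM, a log2 difference of 0.84 ± 0.26. The edgeR adjusted p was 0.0498, and leaving out any of libraries 1, 2, 4, 5, 11, 13 and 14 ended the call, with adjusted p from 0.0505 to 0.2, as did the GC offset (0.0708), no filter on low counts (0.154) and the fit on those groups alone (0.07). DESeq2 and limma voom also passed Abcc1 alone of the 6. Ptgr1, a reductase that inactivates leukotriene B4 and prostaglandins, was the highest of them per length, at a mean of 17.6 RPKM.

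Among receptors 7 of 14 were tested. Ltb4r1, a leukotriene B4 receptor, had 0 counts in all 5 untreated libraries and was at 0, 6.12, 2.05 and 4.82 CPM in bone marrow libraries 11, 13, 14 and 15. It passed between these groups with an edgeR adjusted p of 0.0348, and its bone marrow mean of 3.25 CPM was at least 23.8-fold higher than the level that 3 counts in each untreated library would give. The groups overlapped at 0, and leaving out any untreated library or bone marrow library 13 ended the call, with edgeR adjusted p from 0.0595 to 0.0696. It was also lost in limma voom (adjusted p 0.0821) and in edgeR without libraries 7, 8 and 15 (0.0638). In this comparison limma voom passed none of the 7 receptors and DESeq2 passed 4 of 6, beside 10.5% and 16.1% of all genes, which apart from Ltb4r1 were Ltb4r2 (a leukotriene B4 receptor, lower), Ptger4 (a prostaglandin E2 receptor, higher) and Ptgir (the prostacyclin receptor, higher), named after their values were seen. Without library 15 the DESeq2 log2 difference of Ptger4 went from 2.70 to 0.19 (adjusted p 0.915). The DESeq2 calls of Ptgir and Ltb4r2 ended without library 15 as well. Their log2 differences went from 6.97 to 6.13 for Ptgir (adjusted p 0.00496 to 0.0541) and from -5.27 to -4.94 for Ltb4r2 (0.0421 to 0.0605). Only the Ltb4r1 call held (DESeq2 adjusted p 0.0113). Its fitted difference went from 8.61 to 8.32, but with 0 counts in every untreated library that size is not a measured one. Library 15 held 26.0 CPM of Ptger4 and the other bone marrow libraries 1.18 to 1.59 CPM. For Ltb4r2 the MC903 resident libraries ranged from 2.07 to 10.6 CPM and no bone marrow library exceeded 0.085 CPM, so these groups did not overlap. That difference passed in DESeq2 (adjusted p 0.00113) and limma voom (0.00308) but not in edgeR (0.0958). Between the resident groups DESeq2 passed Ltb4r1 (adjusted p 0.0188) and limma voom Ltb4r2 (0.00117), both higher after MC903, and edgeR gave them adjusted p of 0.115 and 0.575. Ptger3, a prostaglandin E2 receptor, was the highest receptor per length, at a mean of 17.2 RPKM.

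The genes whose pattern over the 14 libraries was most like that of the genes that passed were found by the root mean square distance between log2 CPM profiles, each centred on its own mean, among 7942 genes of at least 10 CPM. The nearest to Hpgds were Slc18a2 (the vesicular monoamine transporter, distance 0.197), Chmp1b (0.205) and Ctnna1 (0.257), and the Hpgds profile itself had a root mean square of 0.60. For Alox5ap, with a root mean square of 1.46, the nearest were Mcm6 (0.642), Pdia4 (0.66) and Glb1 (0.661). For Alox5, at 3.10, no gene was closer than Lgals3bp (1.14), followed by Cdca7 (1.24) and Gmpr (1.25). These distances describe the 14 libraries, which share their groups, depth and library 15.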

How the data were processed

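The authors deposited unnormalized read counts for each gene, with STAR, featureCounts and mm10 named in the submitters' processing notes. Versions, annotation and strand setting are not given in the sources used here, so reads in bases shared with antisense genes (Ltc4s, Alox5ap, Ptgs1) are uncertain. Gene positions equal those of GENCODE M21 on GRCm38 for 55094 of 55487 identifiers. The genes and pathway list were chosen with earlier results of these data known.

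All 14 libraries entered one 3-group quasi-likelihood fit in edgeR 4.0.16 (R 4.3.3), with TMM scaling and genes kept by filterByExpr (minimum count 10, minimum total 15), leaving 21014 genes. P-values were Benjamini-Hochberg adjusted over them, and a gene passed at an adjusted p under 0.05. CPM values are TMM-scaled, and RPKM values are CPM per kilobase of the exonic length in the table. Intervals are the estimate ± 1.96 SE. The reads were amplified and carry no molecular identifiers, so floors cover counting error only. The fitting code was tested on simulated data with less spread than these libraries and with changes only in genes above 10 CPM. That test therefore does not show what can be detected for the low genes here.

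All 9 genes are named. Of the 64 listed pathway genes, 1 of them matched by an older symbol, those that passed and the most abundant per length in each role group are named. Alternatives were DESeq2 1.42.0, limma 3.58.1 (voom with quality weights), other scalings, filters and sets of libraries. Other marker lists were summed per library, and the highest sums were 8.84 CPM for keratinocyte, 30.7 for fibroblast, 40 for endothelial, 74.9 for neutrophil, 5.25 for eosinophil, 84.1 for T cell, 1510 for basophil and 1330 for platelet genes, the last of which include Itga2b and Pf4. A planned comparison of protein sequences was not run.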

Additional observations from a re-analysis of the deposited data

Results flagged for a closer look

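In groups of 4 or 5 libraries, a library was singled out where its gap to the nearest other exceeded Dixon's 95% limit for the group's range. Of 53 gene and group sets examined, 9 held such a library, 6 of them among the 9 genes; chance alone singles out about 1 in 20 groups of normally distributed values, which CPM with many zeros are not. Among untreated resident libraries, library 4 was highest for Ptgs1 (2.47 CPM, the next 0.714 CPM) and for Ptgs2 (20.8 CPM, the next 4.06 CPM), and library 5 was the only one with Hpgd, at 0.179 CPM from 4 counts. Among MC903 resident libraries, library 10 was highest for Ptgs2 (28.3 CPM, the next 4.65 CPM) and library 9 for Alox5 (68.4 CPM, the next 13.04 CPM). Among bone marrow libraries, library 15 was highest for Hpgd (16.0 CPM, the others 0) and for Ptgr1 (127.3 CPM, the next 51.8 CPM), and library 13 for Lpcat3 (257.2 CPM, the next 166 CPM). Library 14 was lowest for Ptges3, at 62.9 CPM with the next at 86.2 CPM. For Hpgd all other libraries of those groups were at 0, so that any count would have been singled out. Library 15 also held the macrophage markers, and their part in its values was not tested.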

How the results depend on the processing

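No paired analysis was possible because each library has a running number of its own and the groups share none. Of 255 refits of single genes among the 8, 230 kept direction and side of the threshold, 6 lost a call, 9 gained one and 10 changed sign. Of 224 refits with 1 library left out, these were 201, 11, 1 and 11. Below, MR is MC903 resident, NT untreated resident and BM bone marrow, and the causes were not tested. Where no count of all genes is printed for a setting, the counts of the 8 and of the listed genes have no share beside them.

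All genes passing: BM against MR 477, with DESeq2 1720, limma voom 2073, a length offset 1443, no filter 748, those groups alone 315, 1 library left out 302 to 704; BM against NT 1443, with DESeq2 2757, limma voom 2212; MR against NT 473, with DESeq2 1072, limma voom 1357, a length offset 305, without libraries 7, 8 and 15 253, 1 left out 312 to 516. The 8 genes passing: MR against NT 0, with DESeq2 or no filter 2, and 1 with limma voom, those groups alone or without libraries 7, 8 and 15, 1 left out 0 to 1; BM against MR 1, with limma voom or the length offset 2, those groups alone or without libraries 7, 8 and 15 0, 1 left out 0 to 1; BM against NT 3, with the length offset 1, 1 left out 2 to 3. Listed pathway genes passing: MR against NT 2, with DESeq2 or limma voom 7, length offset 0, and 1 with the GC offset, a minimum log2 difference of 1, or without libraries 7, 8 and 15, 1 left out 0 to 2; BM against MR 0, with DESeq2 or no filter 3, length offset 5, limma voom 9, those groups alone or without libraries 7, 8 and 15 1, 1 left out 0 to 2; BM against NT 5, with DESeq2 10, GC offset or without libraries 7, 8 and 15 3, those groups alone 2, 1 left out 2 to 5.

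Signs turned for Pla2g4a in MR against NT (0.03 with DESeq2, 0.029 with its size factors, 0.087 with a filter at 10 CPM, 0.086 with TMM from genes of at least 10 CPM, 0.203 with the GC offset and 0.13 with the length offset from genes of at least 10 CPM; 1 left out -0.21 to 0.17), Ptgs1 in BM against MR (-2.13 with limma voom, -1.86 without libraries 7, 8 and 15; 1 left out -1.22 to 1.05), Ptgs2 in MR against NT (-2.10 with limma voom; 1 left out -2.26 to 1.79) and in BM against MR (1 left out -0.065 to 3.587), Hpgds in BM against MR (0.18 with the length offset) and Lta4h in BM against NT (1 left out -0.003 to 0.28). The GC offset, the length offset from genes of at least 10 CPM and the DESeq2 fit without library 15 were chosen after seeing the data. The median log2 difference of all genes moved with scaling, for MR against NT from 0.24 to 0.40 with DESeq2 size factors and -0.02 with the length offset, and for BM against MR from -0.28 to -0.43 and 0.23. Common dispersion over all genes was 1.33, a coefficient of variation of 1.15 between libraries. Its bearing on what can be detected for the cyclooxygenases and Ltc4s was not tested.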
